A study of Mus musculus with 120 samples.

Results

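Cell junctions hold epithelial sheets together, and mouse embryonic stem (mES) cells, which grow as compact epithelial colonies, carry them too. The genes described here are 9 junction genes of different roles: Cdh1, Dsp, Dsg2, Dsc2, Pkp2, Cxadr, Tjp1, Ocln and Cldn6. They were taken with every probeset annotated to their symbols, which gave 25 probesets on the Mouse430_2 array, out of 45101, and 23 on the Mouse430A_2 array, out of 22690. Cdh1, Tjp1 and Cldn6 each had 1 probeset, Dsc2 and Ocln 2, Dsp 3, Pkp2 4, Cxadr 5 and Dsg2 6. The Mouse430A_2 array lacked 1 Cxadr and 1 Ocln probeset.

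The study built clones of the mES line EBRTcH3, in which a single coding sequence with a FLAG tag was exchanged into the ROSA26 locus under a tetracycline-repressed promoter, so every group shares the same parental line and the same inducible locus. All clones grew with LIF. For Zfp295 and Hunk, the study kept the clones in more puromycin than its selection medium held, to lower the variation between replicate clones. Uninduced cells (T0) were kept in 1 µg/ml tetracycline, and induced cells had the tetracycline withdrawn for 24, 39 or 48 hours. Each of 20 genes was profiled in 3 uninduced and 3 induced samples, which by their labels are biological replicates 1 to 3 and by the study are 3 clones, for 120 arrays in all. The gene was expressed for 24 hours in 15 experiments (Bach1, Dscr1, Erg, Ets2, Gabpa, Nrip1, Olig1, Olig2, Pknox1, RIKEN-1810007M14, Dyrk1a, Snf1lk, Pfkl, Zfp295 and Runx1), for 39 hours in 3 (Hunk, Ripk4 and Sim2) and for 48 hours in 2 (Aire and Pdxk). These times follow the sample labels; for Pfkl, the study's check of transgene induction lists a measurement at 39 hours. The coding sequences of Zfp295, Dyrk1a and Snf1lk were human and the others mouse. The Runx1 arrays were of the Mouse430A_2 type and the other 114 of the Mouse430_2 type.

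In epithelia, the adherens junction is built on E-cadherin (Cdh1), whose extracellular part binds the same molecule on the neighbouring cell. The desmosome uses other cadherins, desmogleins and desmocollins (Dsg2, Dsc2), which plakophilins (Pkp2) and desmoplakin (Dsp) couple to keratin filaments. Tight junctions seal the sheet through claudins (Cldn6) and occludin (Ocln), which the scaffold ZO-1 (Tjp1) ties to actin, and the coxsackievirus and adenovirus receptor (Cxadr) is an adhesion protein found there.

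All values are log2 levels that the authors computed with RMA, a method that corrects, normalizes and summarizes the probes of each probeset. A change is the induced minus the uninduced log2 level, averaged over the 3 clones with the replicate number as a block, and a probeset was called changed at an adjusted p under 0.05 in a limma fit over all probesets of that experiment. Array medians lay between 4.89 and 5.68 on the Mouse430_2 arrays and between 7.11 and 7.19 on the Mouse430A_2 arrays, and levels are therefore not compared between the array types. No detection call was used here, so a level under the lower quartile of its array is named as such. The number of arrays limits the precision, since each change rests on 3 pairs. In cultures, fewer cells that carry a transcript and less of it per cell cannot be told apart.

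As a check of the cell type, all 15 markers of embryonic stem cells that were listed, Pou5f1 and Nanog among them, lay above the array median on every array of all 20 experiments. Of the overexpressed genes with a junction call, the arrays registered the induced gene itself only for Runx1, where 2 of 5 probesets rose, 1427650_a_at by 1.13 ± 0.25 (SE, adjusted p = 0.0356) and 1452530_a_at by 1.39 ± 0.31 (adjusted p = 0.0375). The constructs carry no untranslated regions, and the probesets of Erg, Olig2, Aire and Sim2 changed by -0.23 to 0.04 with no call, so these arrays do not check those labels.

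Uninduced mES cells had high signals of some junction genes and low signals of others. Levels are given here as log2 over the median of the array, as the median over the 19 experiments on the Mouse430_2 array with the lowest and highest experiment. Cdh1 was brightest at 6.02 (5.48 to 6.13), followed by Tjp1 at 4.89 (4.26 to 5.36) and Pkp2 (1449799_s_at) at 4.75 (4.49 to 4.99). Next came Dsg2 (1439476_at) at 3.63 (2.88 to 4.56), Cldn6 at 2.84 (2.23 to 3.31) and Dsp (1435494_s_at) at 2.09 (1.18 to 3.22), and the range of Cdh1 lay above that of Tjp1, while those of the following neighbours in this order overlapped. All of these lay above the array median on each of the 57 uninduced arrays. Cxadr was at 1.59 with 1453282_at and 1.00 with 1449949_a_at, and Ocln (1448873_at) at -0.02, above the median on 29 of 57 arrays. Dsc2 was the dimmest, at -0.32 with 1421156_a_at and -1.54 with 1426911_at, and the latter lay under the lower quartile on 34 of 57 arrays. Different probesets bind with different strength, so the order describes signals and not amounts of transcript.

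Over the 20 experiments the members gave 498 values of change, of which 32 were called, 24 higher and 8 lower. All 32 calls came from 5 experiments, Runx1 (12), Erg (13), Olig2 (5), Aire (1) and Sim2 (1). These 5 also had the largest shares of all probesets called. With Runx1 8.51% were called higher and 7.65% lower, and with Erg 5.71% and 6.28%. The shares were 2.45% and 1.48% with Aire, 0.825% and 0.938% with Olig2 and 0.643% and 0.271% with Sim2. Each of the other 15 experiments had at most 0.264% called in either direction. In each of the 32 member calls, all 3 clones moved the same way, which a test on differences within 3 clones favours. By gene, Cldn6 was called in 4 experiments, Cxadr and Ocln in 3, Dsp, Dsg2, Dsc2 and Pkp2 in 2, Tjp1 in 1 and Cdh1 in none.

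**Figure D1:**
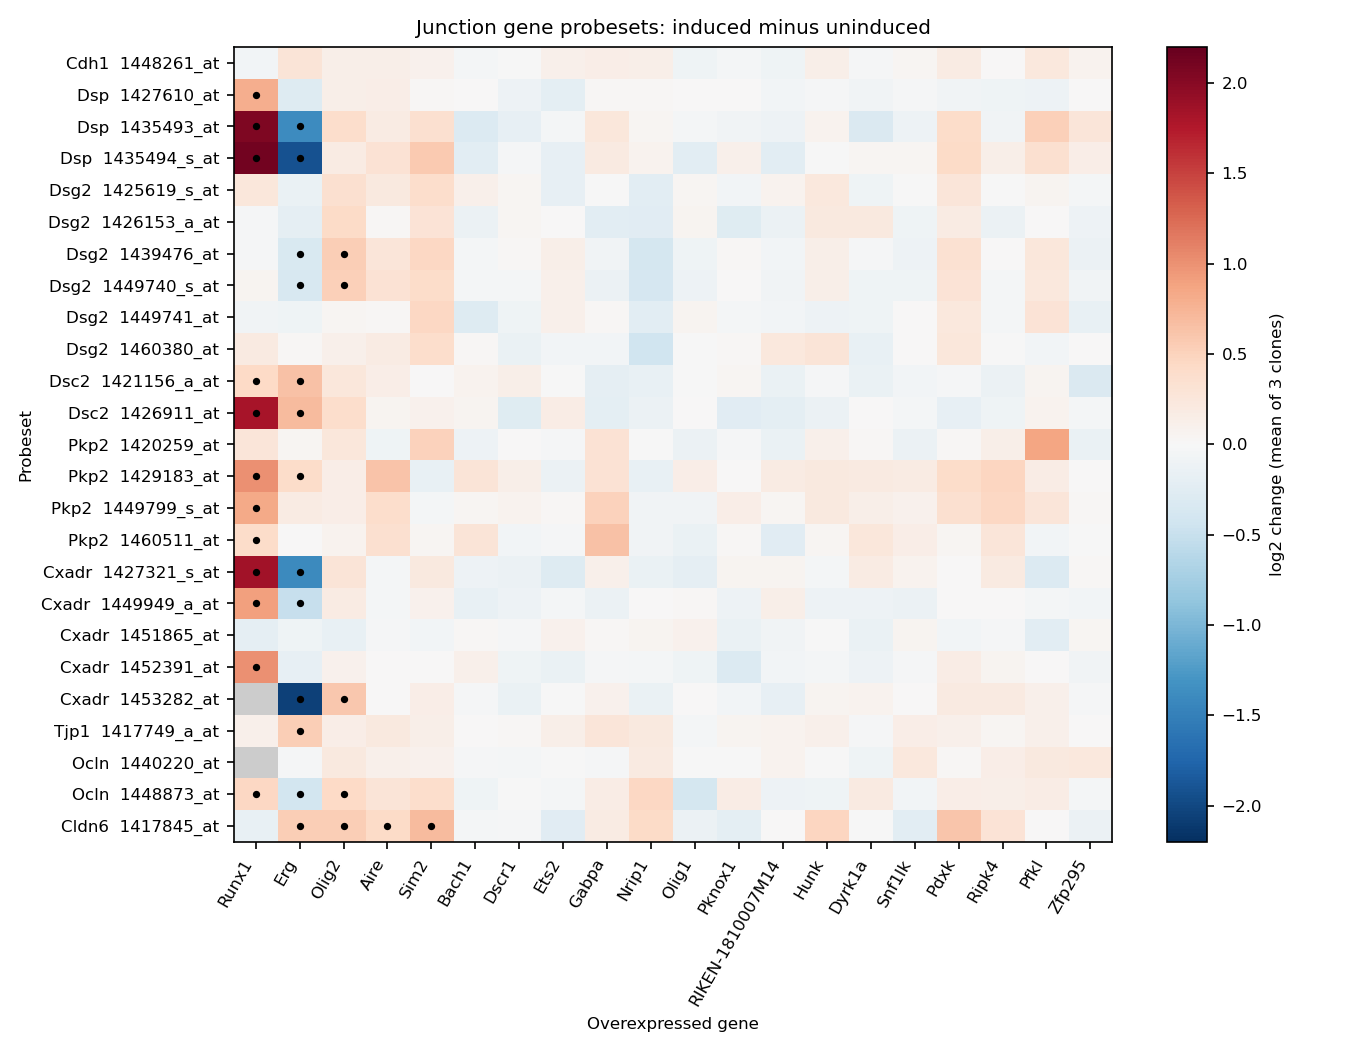
The change of each of the 25 probesets (rows) in each of the 20 experiments (columns), as the mean log2 difference of induced minus uninduced over 3 clones. Dots mark the 32 values called by limma, and grey cells are 2 probesets that the Runx1 arrays lack; the strong colours lie in the Runx1 and Erg columns, with Dsp and Cxadr red in the first and blue in the second.

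Induction of Runx1, a transcription factor needed for blood formation, raised 5 of the 9 genes: Dsp, Dsc2, Pkp2, Cxadr and Ocln. The rise was over 4-fold for Dsp and over 3-fold for Cxadr and Dsc2, each at its most responsive probeset. Cdh1, Dsg2, Tjp1 and Cldn6 were not called. Of the 23 probesets on this array 12 were called, all of them higher, against 8.51% of all probesets called higher and 7.65% called lower in the same fit. The median change of the 23 probesets was 0.41, beside -0.03 over all probesets. Leaving out replicate 1, 2 or 3 gave 11, 9 and 11 calls, of which 11, 9 and 10 were also called in the full fit. Dsp with 1427610_at and Dsc2 with 1421156_a_at lost theirs without replicate 2 and without replicate 3, and Pkp2 with 1460511_at without replicate 1 and without replicate 2.

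Dsp, the linker from the desmosome to keratin, rose furthest. Its probeset 1435494_s_at read 7.96, 7.90 and 7.83 in the uninduced clones and 10.11, 10.09 and 9.89 after induction, so the lowest induced clone was far above the highest uninduced one. The change was 2.13 ± 0.06 (SE, n = 3 pairs), or 4.38-fold, with an adjusted p of 0.000142. The probeset 1435493_at rose by 2.05 ± 0.07 (adjusted p = 0.000231), and 1427610_at, which was under the lower quartile on 2 of the 6 arrays, by 0.80 ± 0.15 (adjusted p = 0.0238).

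Dsp lies on chromosome 13 of GRCm38.p6, from 38151294 to 38198577 on the plus strand. Its promoter in RefSeq, from 250 bases before to 50 bases after the start of transcription (chr13:38151044-38151343, plus strand), is shown because this gene moved in opposite directions with Runx1 and with Erg. Promoters were matched for 4 of the 9 genes (Dsp, Ocln, Cldn6 and Tjp1), and those of Cdh1, Pkp2, Cxadr, Dsg2 and Dsc2 are not shown here. Capitals mark matches on either strand to TGTGGT (the core bound by RUNX proteins), CCGGAA (ETS proteins, the family of Erg), CAGGTG (an E-box bound by the repressors of Cdh1, Snai1 and Zeb1) or AACCGGTT (grainyhead-like proteins).
Dsp: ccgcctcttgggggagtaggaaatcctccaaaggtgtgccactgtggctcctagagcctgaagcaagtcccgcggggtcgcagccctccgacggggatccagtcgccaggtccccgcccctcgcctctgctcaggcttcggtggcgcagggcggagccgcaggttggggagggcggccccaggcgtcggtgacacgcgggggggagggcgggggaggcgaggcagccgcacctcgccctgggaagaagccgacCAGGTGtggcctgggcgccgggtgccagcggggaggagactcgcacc
The Dsp window held 1 match to CAGGTG, 3 bases after the start site, a motif found in 20.2% of the 32851 mouse promoters of that length. It held no match to TGTGGT, which 16.8% of all promoters hold, to CCGGAA (14.9%) or to AACCGGTT (0.146%), which says only that these letters are not in this window.

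The desmosomal cadherins differed from each other. Dsc2, desmocollin 2, read 5.02, 4.53 and 4.86 in the uninduced clones with 1426911_at and 6.69, 6.45 and 6.69 in the induced ones, with no overlap. The change was 1.81 ± 0.07, or 3.50-fold (adjusted p = 0.000265), from a start under the lower quartile in the 3 uninduced clones. The other Dsc2 probeset, 1421156_a_at, rose by 0.44 ± 0.08 (adjusted p = 0.0187). None of the 6 probesets of Dsg2, desmoglein 2, was called: their changes ran from -0.09 to 0.24, and that of 1439476_at was -0.02 with a 95% interval from -0.24 to 0.20.

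Pkp2, plakophilin 2, binds Dsp to the desmosomal cadherins. Its probeset 1449799_s_at went from 10.44, 10.39 and 10.46 to 11.36, 11.13 and 11.30, again without overlap. This was a change of 0.83 ± 0.07, or 1.78-fold (adjusted p = 0.00137), and 1429183_at (1.01 ± 0.16, adjusted p = 0.0116) and 1460511_at (0.41 ± 0.10, adjusted p = 0.0419) rose too. The fourth Pkp2 probeset, 1420259_at, had a change of 0.27 with no call (adjusted p = 0.0929).

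Of the tight junction members, Cxadr responded most. With 1427321_s_at, Cxadr read 6.13, 5.76 and 6.35 in uninduced and 7.92, 7.89 and 7.98 in induced clones, and the induced clones were closer together than the uninduced. The change was 1.85 ± 0.11, or 3.60-fold (adjusted p = 0.000553). Cxadr also rose with 1452391_at (1.00 ± 0.09, adjusted p = 0.00193) and 1449949_a_at (0.90 ± 0.07, adjusted p = 0.00114), while 1451865_at, which stayed under the lower quartile on all 6 arrays, gave -0.20. Ocln, occludin, went from 4.99, 4.90 and 5.02 to 5.40, 5.26 and 5.60. The groups did not overlap, and the change was 0.45 ± 0.07 (adjusted p = 0.0125), with 3 of the 6 arrays under their lower quartile.

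The classical junction genes gave no call with Runx1. Cdh1 read 11.46, 11.30 and 11.28 in uninduced and 11.37, 11.33 and 11.13 in induced clones, and the groups overlapped. Its change was -0.06 with a 95% interval from -0.23 to 0.10. The interval of Tjp1, ZO-1, ran from -0.07 to 0.28 around 0.11, and that of Cldn6 from -0.34 to 0.02 around -0.16. These intervals leave out changes as large as those of Dsp, Dsc2, Pkp2 or Cxadr.

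Induction of Erg, a transcription factor of the ETS family, moved the members in both directions. Dsp, Cxadr, Dsg2 and Ocln fell and Dsc2, Pkp2, Tjp1 and Cldn6 rose, so that 8 of the 9 genes had at least 1 called probeset. Of 25 probesets 8 were called lower, against 6.28% of all probesets, and 5 higher, against 5.71%. The median change of the members was -0.10 and that of all probesets -0.01. Leaving out replicate 1, 2 or 3 gave 8, 12 and 5 calls, of which 8, 11 and 5 were also called in the full fit. The calls of Dsg2, Pkp2, Ocln and Cldn6 were lost without replicate 1 and without replicate 3, that of Dsg2 with 1439476_at also without replicate 2, that of Tjp1 without replicate 3, that of Dsc2 with 1426911_at without replicate 3, and that of Cxadr with 1449949_a_at without replicate 2 and without replicate 3.

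Dsp with 1435494_s_at read 6.98, 7.13 and 7.10 in the uninduced Erg clones and 4.54, 5.55 and 5.35 in the induced ones. All induced clones were below all uninduced clones, clone 1 furthest. The change was -1.92 ± 0.16, or 3.79-fold lower (adjusted p = 0.000334), and 1435493_at fell by 1.39 ± 0.10 (adjusted p = 0.000194), while 1427610_at gave -0.28 with no call (adjusted p = 0.133).

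Cxadr fell as far. Its probeset 1453282_at, which the Runx1 arrays lack, went from 6.65, 7.06 and 6.75 to 4.49, 4.96 and 4.84. No arrays overlapped, and the change was -2.06 ± 0.09, or 4.17-fold lower (adjusted p = 2.57e-05). Cxadr with 1427321_s_at fell by 1.40 ± 0.12 (adjusted p = 0.000452) and with 1449949_a_at by 0.51 ± 0.10 (adjusted p = 0.015). Its probesets 1451865_at (-0.10) and 1452391_at (-0.18) were not called. Ocln with 1448873_at fell from 4.32, 4.31 and 4.32 to 3.76, 3.97 and 4.01, a change of -0.40 ± 0.09 (adjusted p = 0.0223). The other Ocln probeset, 1440220_at, gave -0.03 with no call (adjusted p = 0.942).

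The desmosomal cadherins moved apart from each other with Erg as well. Dsg2 fell by 0.33 ± 0.08 with 1439476_at (adjusted p = 0.0392) and by 0.36 ± 0.08 with 1449740_s_at (adjusted p = 0.0282), and its other 4 probesets, at -0.20 to 0.03, were not called. Dsc2 with 1421156_a_at rose from 4.55, 4.86 and 4.60 to 5.29, 5.40 and 5.24, with no overlap. That was a change of 0.64 ± 0.08 (adjusted p = 0.00256), and 1426911_at rose by 0.69 ± 0.12 (adjusted p = 0.0104). Dsc2 was thus called higher with both Runx1 and Erg, whereas Dsp, Cxadr and Ocln were called higher with the former and lower with the latter.

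Of the other members, Tjp1 read 10.37, 10.19 and 10.42 in uninduced and 10.77, 10.80 and 11.04 in induced Erg clones. The change of 0.54 ± 0.08 (adjusted p = 0.00582) was the only call of Tjp1 in the series. Pkp2 was called with 1429183_at (0.40 ± 0.10, adjusted p = 0.0392), where the arrays overlapped, but not with 1449799_s_at (0.18, adjusted p = 0.213). Cdh1 went from 10.97, 10.45 and 10.94 to 11.07, 11.03 and 11.12. Although every induced clone was above every uninduced clone, 0.29 ± 0.11 did not pass the test (adjusted p = 0.15).

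**Figure D2:**
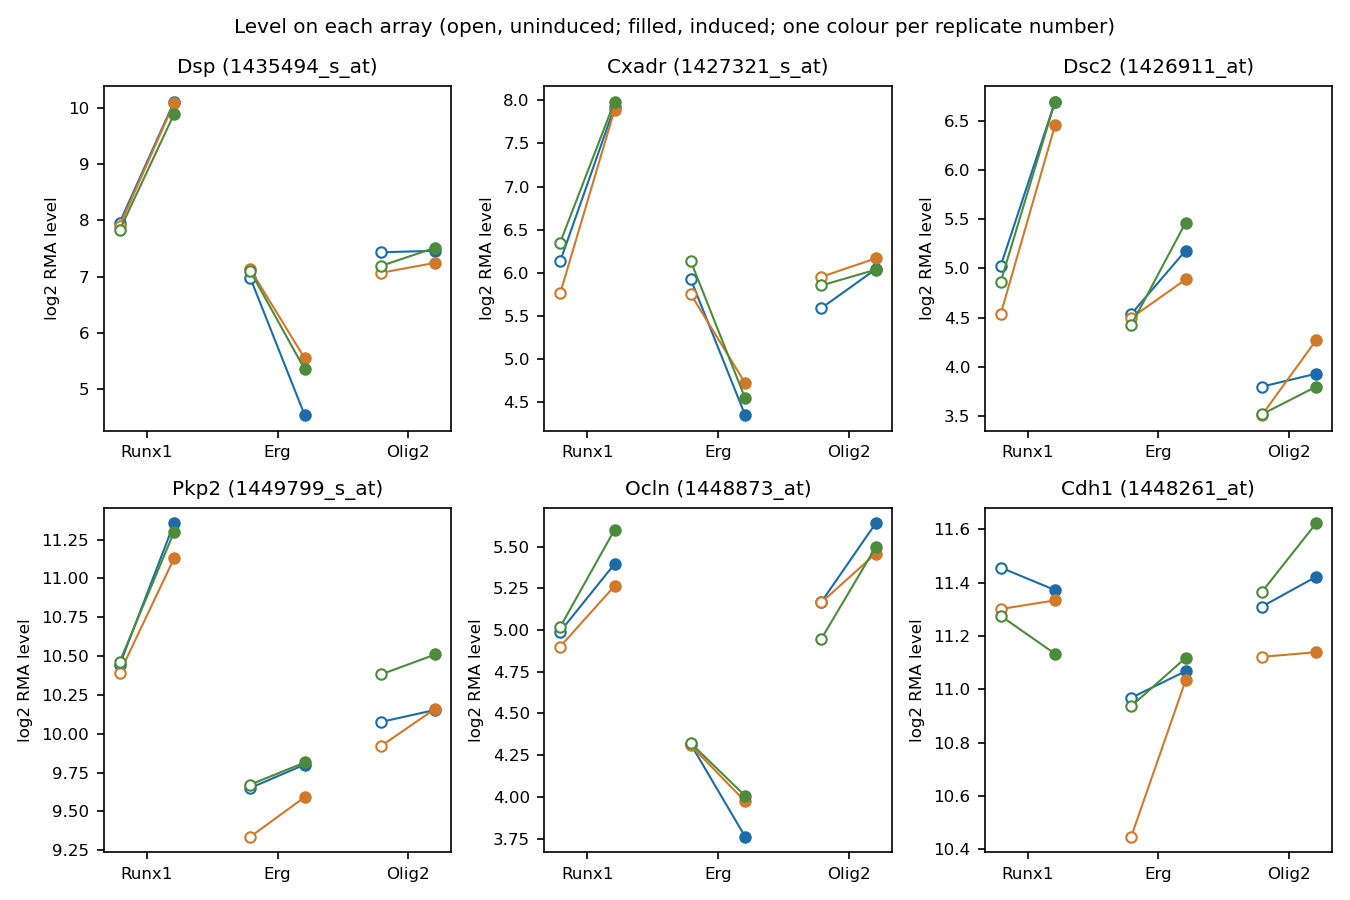
Log2 RMA levels of 6 member probesets on each array of the Runx1, Erg and Olig2 experiments, open for uninduced and filled for induced, with lines joining the arrays of 1 replicate number. Dsp and Cxadr go up in all 3 clones with Runx1 and down in all 3 with Erg, Dsc2 goes up in all clones of both, and Cdh1 stays within 10.45 to 11.62; the Runx1 panel parts come from another array type, so their heights are not comparable with the others.

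Olig2, a helix-loop-helix transcription factor of the neural tube, raised 4 genes, Dsg2, Cxadr, Ocln and Cldn6, each by less than 1.6-fold. Of the 25 probesets 5 were called higher, beside 0.825% of all probesets, and none lower, beside 0.938%. Of all 25 changes 24 were above 0, against 50.0% of all probesets, and 11 of the 25 had induced arrays that lay all above the uninduced ones, against 6.21%. Dsg2 with 1439476_at went from 8.84, 8.74 and 8.72 to 9.39, 9.17 and 9.38, with no overlap and a change of 0.55 ± 0.07 (adjusted p = 0.0188). Its probeset 1449740_s_at rose by 0.52 ± 0.07 (adjusted p = 0.0189), and the remaining Dsg2 probesets, at 0.04 to 0.425, were not called. Cxadr with 1453282_at rose by 0.59 ± 0.07 (adjusted p = 0.0117), from 6.52, 6.53 and 6.66 to 7.14, 7.05 and 7.30. Its probesets 1427321_s_at (0.28), 1449949_a_at (0.19), 1452391_at (0.10) and 1451865_at (-0.17) were not called. Ocln with 1448873_at went from 5.17, 5.17 and 4.95 to 5.64, 5.46 and 5.50, a change of 0.44 ± 0.08 (adjusted p = 0.0419). The other Ocln probeset, 1440220_at, gave 0.22 with no call (adjusted p = 0.202). Dsp had a change of 0.39 with 1435493_at (adjusted p = 0.0685) and 0.18 with 1435494_s_at (adjusted p = 0.396), neither called. None of the 5 calls was kept without the replicate block, and leaving out replicate 1, 2 or 3 left 0, 2 and 2 calls.

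Erg and Olig2 were profiled on the same array type, so their changes could be tested against each other, which 8.92% of all probesets passed. Of the 25 member probesets 9 differed, all with the Erg change below the Olig2 change, and they belong to Dsp, Dsg2, Cxadr and Ocln. The difference was -2.10 ± 0.20 for Dsp with 1435494_s_at (adjusted p = 0.000148), -2.65 ± 0.11 for Cxadr with 1453282_at (adjusted p = 1.19e-06), -0.88 ± 0.11 for Dsg2 with 1439476_at (adjusted p = 0.000728) and -0.84 ± 0.12 for Ocln (adjusted p = 0.00137). Cldn6 changed by 0.54 in both experiments, and the difference was 0.00 ± 0.15. The changes with Runx1 and with Erg were normalized on different arrays and their difference was not tested.

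Cldn6, a claudin typical of embryonic epithelia, was the member called in the most experiments. With Erg it went from 7.19, 7.29 and 7.18 to 7.99, 7.49 and 7.81 (change 0.54 ± 0.12, adjusted p = 0.0248). With Olig2 it went from 8.10, 8.03 and 7.80 to 8.61, 8.71 and 8.24 (change 0.54 ± 0.08, adjusted p = 0.0205). In both experiments the induced arrays were all above the uninduced ones. With Aire, a transcriptional regulator of the thymus, it went from 8.18, 8.08 and 8.32 to 8.67, 8.30 and 8.90 (change 0.43 ± 0.09, adjusted p = 0.0354). With Sim2, a bHLH-PAS transcription factor, it went from 7.51, 7.69 and 8.36 to 8.30, 8.34 and 9.01 (change 0.70 ± 0.10, adjusted p = 0.0436). In these last experiments the arrays overlapped and only the differences within clones were all positive. Without the replicate block, the Cldn6 call held with Erg (adjusted p = 0.0299) and was lost with Olig2 (0.313), Aire (0.302) and Sim2 (0.347). It was also lost without replicate 1 in each of the 4 experiments (adjusted p 0.0702 to 0.13), without replicate 3 with Aire (0.239) and Erg (0.152), and without replicate 2 with Olig2 (0.0881) and Sim2 (0.282).

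Cldn6 was the only member called with Aire, where 2.45% of all probesets were higher and 1.48% lower, and with Sim2, where the shares were 0.643% and 0.271%. The number of member probesets with an unadjusted p under 0.05 was 12 of 25 with Aire, against 18.3% of all probesets, and 5 of 25 with Sim2, against 14.8%. Pkp2 came closest among the others with Aire, at 0.36 ± 0.09 for 1460511_at (adjusted p = 0.059) and 0.62 ± 0.15 for 1429183_at (adjusted p = 0.0647). Dsp came closest with Sim2, at 0.57 ± 0.10 for 1435494_s_at (adjusted p = 0.0615).

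The change of Cldn6 was positive in all 5 experiments of 39 or 48 hours, from 0.29 with Ripk4 to 0.70 with Sim2, with a median of 0.47. In the 14 experiments of 24 hours on the same array type it ran from -0.26 to 0.54 with a median of -0.02, and was positive in 6; Pfkl, counted here at 24 hours, had a change of 0.01. Cldn6 was not alone in this: with 1 probeset for a gene, Cdh1, Dsg2 and Tjp1 were also positive in all 5 longer experiments. Their medians there were 0.13, 0.26 and 0.11, against 0.06, -0.05 and 0.10 at 24 hours. Dsp, Pkp2 and Ocln were positive in 4 of these 5, Cxadr in 3 and Dsc2 in 2. The share of all probesets with such a pattern was not counted. Length of induction and overexpressed gene cannot be told apart in this design. Pdxk (0.61 ± 0.14, adjusted p = 0.109) and Hunk (0.47 ± 0.10, adjusted p = 0.218) had changes of the same size as the called ones.

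**Figure D3:**
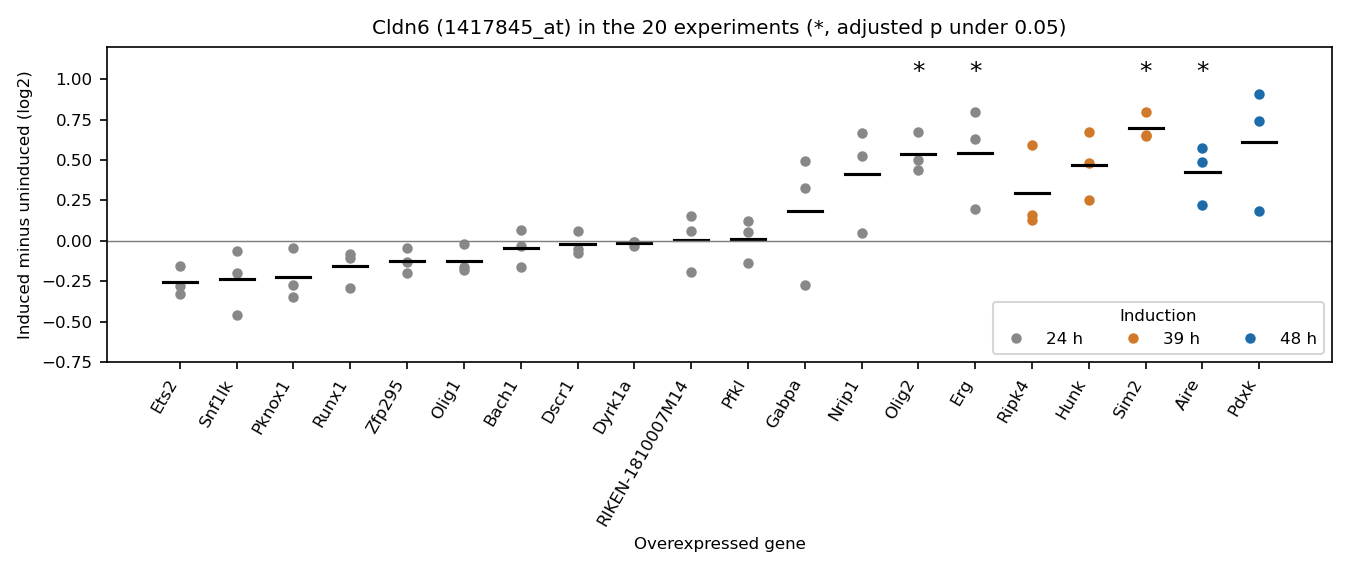
Change of Cldn6 (log2, induced minus uninduced) in each of the 20 experiments, ordered by hours of induction and then by size. Points are the 3 clones and bars their mean; all 5 experiments of 39 or 48 hours lie above 0, as do all clones in the 4 experiments called by limma, which are marked with an asterisk.

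The promoters of Ocln and Cldn6 are shown for the same motifs, since these genes were called in 3 and in 4 experiments. RefSeq gives 2 promoters of Ocln, of which the upstream one is at chr13:100552669-100552968 on the minus strand, and that of Cldn6 at chr17:23679115-23679414 on the plus strand (GRCm38.p6).
Ocln: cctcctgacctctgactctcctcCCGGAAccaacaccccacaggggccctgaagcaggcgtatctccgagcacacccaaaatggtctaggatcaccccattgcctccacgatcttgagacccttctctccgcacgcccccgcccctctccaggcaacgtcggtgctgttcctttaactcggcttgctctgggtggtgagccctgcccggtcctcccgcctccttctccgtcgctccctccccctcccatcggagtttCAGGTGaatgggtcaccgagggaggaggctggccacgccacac
Cldn6: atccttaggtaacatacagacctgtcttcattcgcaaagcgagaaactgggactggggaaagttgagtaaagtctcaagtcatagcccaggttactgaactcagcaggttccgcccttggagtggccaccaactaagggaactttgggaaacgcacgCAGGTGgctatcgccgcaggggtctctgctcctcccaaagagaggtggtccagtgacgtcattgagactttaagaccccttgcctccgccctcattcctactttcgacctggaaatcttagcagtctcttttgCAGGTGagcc
Ocln had 1 match to CCGGAA, 227 bases before the start site, and 1 to CAGGTG, 7 bases after it. The other Ocln promoter (chr13:100552449-100552748, minus strand), not printed, held 2 matches to CAGGTG, 213 and 68 bases before its start, and none to CCGGAA. The 2 Ocln windows overlap, and the match 213 bases before this start is the same site as that 7 bases after the upstream start. Cldn6 had 2 matches to CAGGTG, 93 bases before and 40 bases after its start. None of the promoters of Dsp, Ocln, Cldn6 and Tjp1 held TGTGGT or AACCGGTT, and that of Tjp1 held no match to any of the 4 motifs.

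In the other 15 experiments no member was called. The share of all probesets called there was 0.264% with Pdxk, 0.135% with Nrip1, 0.0177% with Ripk4, 0.00665% with Hunk and 0.00222% with Bach1, and 0.0% in the remaining 10. By limma, 53 of the 375 member values in these experiments had an unadjusted p under 0.05, between 1 and 7 per experiment, against 6.94% of all probeset values there. The regularized test called 1 of them, with Pdxk. The largest change not called was that of Pkp2 with 1420259_at and Pfkl, 0.86 ± 0.82, where the clones moved by 3.50, 0.18 and -1.10. Pkp2 had changes of 0.50 to 0.64 with Gabpa in 1449799_s_at (adjusted p = 0.226) and 1460511_at (adjusted p = 0.232), both positive in all clones. With Nrip1, Ocln changed by 0.45 (adjusted p = 0.179) and Dsg2 with 1460380_at by -0.44 (adjusted p = 0.219).

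A response shared by all inductions, such as one to the loss of tetracycline, was looked for as the mean change over the 19 experiments on the Mouse430_2 array. By limma none of the 25 member probesets was called, beside 0.0554% of all probesets, and 6 had an unadjusted p under 0.05, against 13.4% of all probesets. The nearest were Tjp1 with 0.12 ± 0.03 (higher in 17 of 19 experiments, adjusted p = 0.0906) and Pkp2 with 0.15 ± 0.04 for 1449799_s_at (16 of 19, adjusted p = 0.0969). Cdh1 had a mean change of 0.07 ± 0.03 (13 of 19, adjusted p = 0.197).

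The clones of an experiment could differ from each other by more than induction moved them. Clone 1 of Ets2 had Dsp (1435494_s_at) at 9.07 uninduced and 8.85 induced, while clones 2 and 3 lay between 6.60 and 6.93. Its Cxadr (1453282_at) was at 7.87 and 7.72 against 6.15 to 6.41, and its Dsc2 (1426911_at) at 5.16 and 5.30 against 4.01 to 4.33. In the same clone Pkp2 (1429183_at) was lower, at 8.81 and 8.48 against 9.46 to 9.71, and Tjp1 was at 9.67 and 9.66 against 10.05 to 10.38. Of genes chosen after these values were seen, Krt8 was at 11.9 and 11.7 against 8.18 to 8.30. Krt18, its filament partner, was at 11.3 and 11.3 against 7.09 to 7.63. Of the stem cell markers read there, Pou5f1 was at 13.10 and 12.79 against 13.01 to 13.06. Nanog was lower in this clone, at 11.81 and 11.52 against 12.18 to 12.38. The summed linear level of 14 primitive endoderm markers was 31500 and 34900 in this clone and 3200 to 3420 in the others. Clone 1 of Pknox1 (21500 and 19500 against 3890 to 4400) and clone 1 of Olig1 (15100 and 15800 against 3780 to 5150) also had high sums. There Dsp did not stand apart to that degree, at 7.61 and 7.60 against 7.37 to 7.71 in Pknox1 and at 7.88 and 7.62 against 6.40 to 7.62 in Olig1. The part of endoderm-like cells in the clone values was not tested. The difference between this clone and the other 2 was there with and without induction, and Ets2 itself had no called probeset at all.

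Dsg2 marked clones as well. In the Runx1 experiment, clone 2 had Dsg2 (1439476_at) at 8.75 and 8.84 against 9.68 to 9.96 in the others, and 1426153_a_at of the same gene at 6.001 and 5.88 against 4.88 to 4.96. In the Sim2 experiment the arrays with high 1426153_a_at were uninduced replicate 2 (5.79) and induced replicate 1 (6.06), beside 3.79 to 4.34 on the other 4, and uninduced replicate 2 also had the lowest 1439476_at (7.69). The change of 1426153_a_at was therefore 2.27, -1.44 and 0.08 for the 3 numbers. With uninduced replicates 1 and 2 exchanged in the fit, the Cldn6 call with Sim2 was lost (adjusted p = 0.119).

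**Figure D4:**
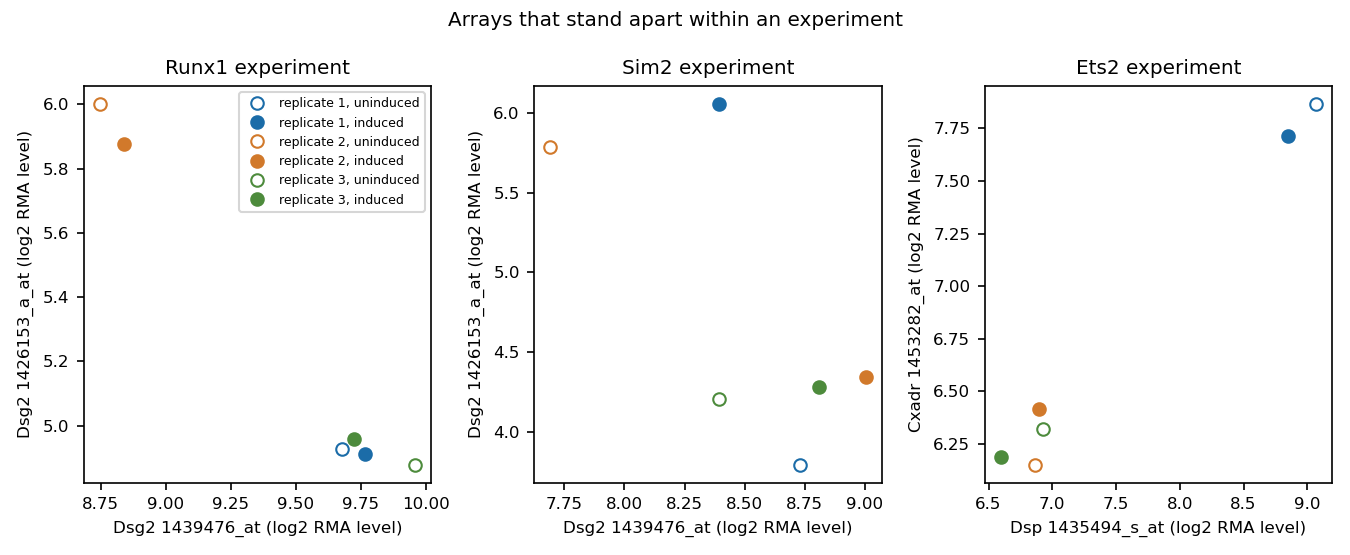
Levels (log2 RMA) of 2 probesets against each other on the 6 arrays of the Runx1, Sim2 and Ets2 experiments, open for uninduced and filled for induced, 1 colour for each replicate number. In Runx1 both arrays of replicate 2 stand apart in the Dsg2 probesets, in Sim2 uninduced replicate 2 and induced replicate 1 have the highest 1426153_a_at, and in Ets2 both arrays of replicate 1 stand apart with high Dsp and Cxadr.

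Genes with a pattern of change like that of a member over the 20 experiments were sought among 12393 genes, by the Pearson correlation of their mean changes. Most like Dsp were Snx10 (r = 0.95), Pmel (0.91), Scand1 (0.89) and Slc35a1 (0.89), and most like Cxadr (1449949_a_at) were Tppp3 (0.93), Gpc1 (0.91), Tmem62 (0.90) and Ckm (0.90). Dsp and Cxadr correlated with each other at 0.87. The Cxadr values rest largely on the Runx1 and Erg experiments. Over the other 18, Tppp3 had 0.22 with Cxadr, Gpc1 0.42, Tmem62 0.49 and Ckm 0.57, and Dsp and Cxadr had 0.17. With Dsp, more was kept over those 18, with Snx10 at 0.72, Pmel at 0.73, Scand1 at 0.65 and Slc35a1 at 0.42. Most like Cdh1 were Elk3 (0.80), Hltf (0.78), Hmgn5 (0.77) and Shroom3 (0.76), and Elk3 had 0.79 over the other 18. These are descriptions over 20 means, each of 3 clones.

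The other genes of the junctions were read from lists of the adherens junction, desmosome, tight junction and gap junction that left out the 9 members, with 1 probeset for a gene. With Runx1, 17 of the 72 genes on the array were called, 9 higher and 8 lower, beside 9.95% of all genes called higher and 8.54% lower. Runx1 raised the keratins to which desmosomes attach, Krt18 by 2.03 ± 0.17 (adjusted p = 0.00153) and Krt8 by 1.05 ± 0.24 (adjusted p = 0.0402), least in clone 2 with 0.345, and these were the only 2 calls among 12 desmosome genes. Of 34 tight junction genes 6 rose and 3 fell. Marveld2, tricellulin, rose by 2.31 ± 0.07 (4.97-fold, adjusted p = 0.000142), Cldn2, a pore-forming claudin, by 2.23 ± 0.14 (4.70-fold, adjusted p = 0.00068) and Cgnl1, paracingulin, by 0.81 ± 0.09 (adjusted p = 0.00325), while Esam, an endothelial adhesion molecule, fell by 1.68 ± 0.14 (adjusted p = 0.00165).

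Of 17 adherens genes 5 fell and none rose with Runx1, and 12 were not called. N-cadherin (Cdh2) fell by 1.33 ± 0.07 (adjusted p = 0.000454), from 6.12 ± 0.02 to 4.78 ± 0.13 (SD, n = 3). Epcam, an adhesion molecule of epithelial and stem cells, fell by 0.84 ± 0.06 (adjusted p = 0.00107), and the nectin family members Nectin2 and Pvr by 0.44 and 0.27. Of 10 gap junction genes Gjb5 rose, by 0.53 ± 0.07 (adjusted p = 0.00618). The median change was -0.07 for the adherens, 0.03 for the desmosome, -0.04 for the tight and -0.12 for the gap junction list, beside -0.02 over all genes.

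With Erg, 21 of 78 list genes were called, 14 higher and 7 lower, beside 6.77% and 9.15% of all genes. Leaving out replicate 1, 2 or 3 gave 12, 17 and 12 calls. Krt8 fell by 1.14 ± 0.11 (adjusted p = 0.000756) while Krt19, another keratin, rose by 1.13 ± 0.08 (adjusted p = 0.000195). Plakoglobin (Jup), which is shared by adherens junctions and desmosomes, rose by 0.96 ± 0.22 (adjusted p = 0.0268), and the desmosomal Perp by 0.92 ± 0.10 (adjusted p = 0.00143), the latter with overlapping arrays. Of 37 tight junction genes 7 rose and 3 fell, led by Esam (1.98 ± 0.09, adjusted p = 3.2e-05), the junctional adhesion molecule Jam2 (-1.53 ± 0.11, adjusted p = 0.000193), the angiomotin Amotl1 (0.94 ± 0.08, adjusted p = 0.000375) and ZO-3, Tjp3 (-0.66 ± 0.08, adjusted p = 0.00169). Of 18 adherens genes 4 rose, among them Ctnnd1, the catenin p120 (0.68 ± 0.11, adjusted p = 0.00679), and VE-cadherin, Cdh5 (0.43 ± 0.10, adjusted p = 0.0321), and 1 fell. Krt8 and Esam, like Dsp and Cxadr, had opposite signs with Runx1 and Erg.

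With Olig2, 3 of 78 list genes rose and 2 fell, beside 1.14% and 1.32% of all genes. Leaving out replicate 1, 2 or 3 gave 0, 4 and 3 calls. Krt19 rose by 0.81 ± 0.13 (adjusted p = 0.0277), Cldn7 by 0.73 ± 0.10 (adjusted p = 0.0183) and Marveld2 by 0.60 ± 0.10 (adjusted p = 0.0393), while P-cadherin (Cdh3) fell by 0.80 ± 0.10 (adjusted p = 0.0131) and the connexin Gjb1 by 0.63 ± 0.09 (adjusted p = 0.0188). With Aire, 4 list genes rose and 1 fell, beside 3.31% and 1.65% of all genes, with cingulin (Cgn) at 0.59 ± 0.08 (adjusted p = 0.0103) and Gjb1 at 0.49 ± 0.08 (adjusted p = 0.02). Without replicate 1, 2 or 3 there were 7, 6 and 0 calls with Aire. By limma none of the 78 was called with Sim2, where 0.863% of all genes were higher and 0.264% lower. An unadjusted p under 0.05 was found for 16 of the 78, against 14.8% of all probesets in that fit. That share includes dim probesets, and the share with 1 probeset for a gene was not counted.

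**Figure D5:**
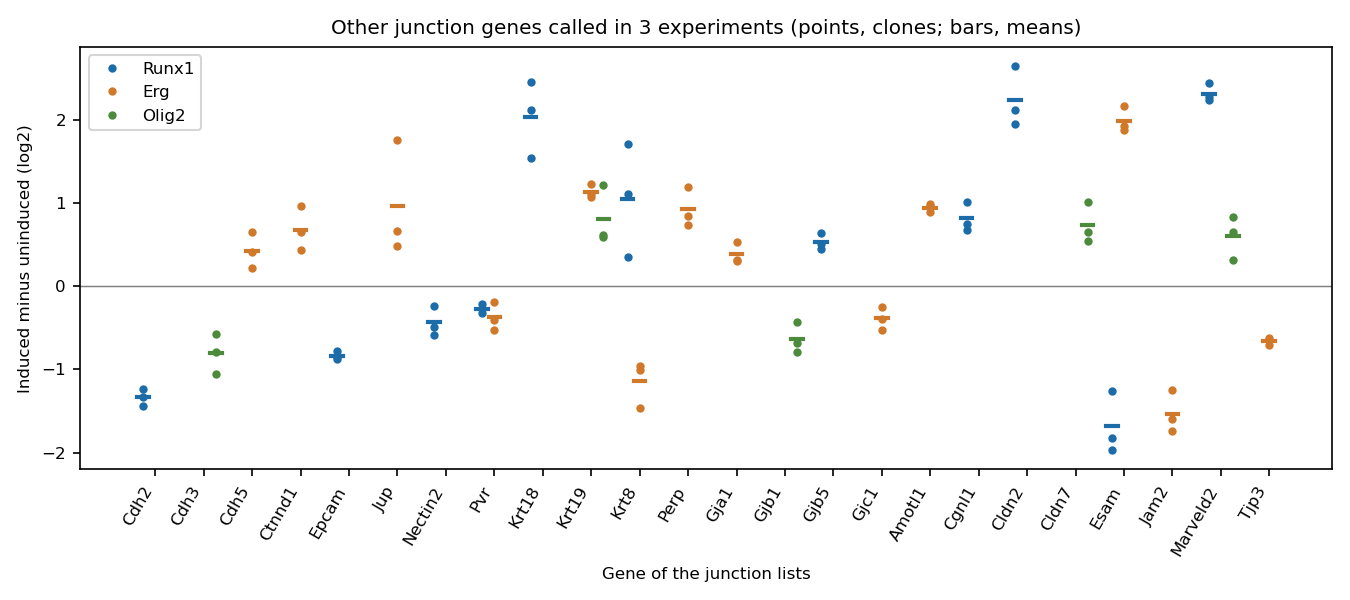
Change (log2, induced minus uninduced) of the junction list genes named in the Runx1, Erg and Olig2 experiments, up to 4 called genes for each list and experiment. Points are the 3 clones and bars their mean; Krt8 is higher with Runx1 and lower with Erg, Esam the reverse, and Krt18, Cldn2 and Marveld2 rise by at least 1.54 in every clone with Runx1.

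Regulators and markers known for the loss of epithelial junctions were read in the same experiments. Snai1, a repressor of Cdh1, rose with Erg (1.55 ± 0.14, adjusted p = 0.000475), Runx1 (0.85 ± 0.15, adjusted p = 0.0173) and Olig2 (0.60 ± 0.10, adjusted p = 0.0356). Vimentin (Vim), a filament of mesenchymal cells, rose with Erg (0.68 ± 0.09, adjusted p = 0.00249) and Runx1 (0.50 ± 0.08, adjusted p = 0.0154). Snai2, Zeb1 and Zeb2 were not called in any of the 5 experiments. Of the whole list of 18 genes, 2 rose and 3 fell with Erg, 2 rose and 1 fell with Olig2 and 2 rose with Aire, and of the 17 on the Runx1 array 5 rose and 2 fell. By limma, none was called with Sim2, and 8 of the 18 had an unadjusted p under 0.05, against 14.8% of all probesets there. The share with 1 probeset for a gene was again not counted. The shares of all genes called are those given for the junction lists.

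Markers of cell state were read in the same experiments. Of all genes, 9.95% were called higher and 8.54% lower with Runx1, 6.77% and 9.15% with Erg, and 1.14% and 1.32% with Olig2. Counts of 1 or 2 markers in a list lie near such shares with Runx1 and Erg. With Runx1, 9 of 15 embryonic stem cell markers were lower and 2 higher, and their summed linear level went from 95800 to 98000 uninduced to between 83400 and 84800 induced. With Erg, 7 of 15 were lower, and the sums were 70100 to 74000 and 59700 to 63300. Of 10 trophectoderm markers 3 rose with Runx1, Eomes by 1.74, Krt7 by 1.65 and Tfap2c by 0.79, and 2 fell, Plet1 by 1.70 among them, with sums of 1290 to 1580 uninduced and 2250 to 2600 induced. With Erg 1 of the 10 rose and 2 fell, and the sums went from 695 to 773 to between 599 and 658. With Olig2 1 of the 10 rose, Tfap2c by 0.82, and the sums went from 994 to 1080 to between 1500 and 1630. Of 14 primitive endoderm markers 1 rose with Runx1, Sparc by 0.95, and 2 fell, Sox7 and Lamb1. The median change of the 14 was -0.15, although the sums went from 5120 to 5760 uninduced to between 6680 and 8600 induced. With Erg 3 of the 14 rose, Col4a1, Col4a2 and Sparc, and 1 fell, Lama1 by 1.49. Their median change was 0.12, with sums of 3560 to 3890 uninduced and 5340 to 5830 induced. Such sums weigh bright genes most and do not show that most markers of a list rose. Of 10 fibroblast markers 1 rose with Erg, Thy1 by 2.11, and 5 of the 10 lay under the lower quartile on all Runx1 arrays. With Olig2, 1 stem cell marker and 1 fibroblast marker rose, and 1 primitive endoderm marker rose and 1 fell. With Aire, 2 stem cell markers rose, 1 trophectoderm marker rose and 2 fell, and 2 primitive endoderm markers fell. Of all genes, 3.31% were called higher and 1.65% lower with Aire. With Sim2, 1 trophectoderm marker rose, Krt7 by 0.94, beside 0.863% of all genes called higher and 0.264% lower. The part of these cell state changes in the junction results was not tested.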

How the data were processed

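Total RNA of mES clones was hybridised to Affymetrix Mouse430_2 (114) and Mouse430A_2 (6) arrays. The deposited values are log2 expression levels per probeset, which the authors computed from the scans with RMA in the affy package, the induced and uninduced arrays normalized together per the study's methods. Array medians differed by at most 0.088 within an experiment and ran from 4.89 to 5.68 over the Mouse430_2 arrays, and each experiment was therefore treated as normalized on its own. The versions of these tools are not given in the sources used here, and the scans were not used. Genes were assigned from the platform annotation, which names 1 gene for 34958 of 45101 probesets on the Mouse430_2 array and 20393 of 22690 on the Mouse430A_2 array, several for 932 and 691, and none for 9211 and 1606.

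Groups and replicate numbers follow the sample labels. The induced and uninduced samples of each experiment were compared with limma 3.58.1 (R 4.3.3), with the replicate number as a block and p-values were adjusted by Benjamini-Hochberg within each experiment, over every probeset (45100 for Sim2, where 1 value is missing), and the script was tested on simulated data. Arrays of the same replicate number deviated together in 54 of 60 pairs (correlation of their deviations from the group means above 0.1, median 0.376) and in all 3 pairs of 15 experiments, Runx1, Erg, Olig2, Aire and Sim2 among them. Nothing in the labels says how the replicates were cultured, so p-values measure the spread between these samples. The mean response used an intercept over 19 experiments, and Erg against Olig2 a limma test on the paired differences.

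The members and the lists (adherens junction, desmosome, tight junction, gap junction, mesenchymal transition and cell type markers) were chosen with earlier results of these data known. Every member is named. Of the other list genes, up to 4 with the largest change among those called were named for each list and experiment with a member call, of the transition list the fixed genes Snai1, Snai2, Zeb1, Zeb2 and Vim, and for likeness the 4 genes of highest correlation. Where a gene had several probesets, the list analyses used the one with the highest mean level on the Mouse430_2 arrays among those on both arrays. Alternatives were the fit without the block, a regularized paired test, the methods' t-test, trended and robust variances, a single fit over all Mouse430_2 arrays, a second quantile normalization, median centring, filters on dim or cross-hybridising probesets, a threshold of 0.01, the mean over a gene's probesets, exchanged Sim2 clones and each replicate left out. Promoter sequences are from RefSeq (GRCm38.p6). Python 3 with pandas and matplotlib made the tables and plots.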

Additional observations from a re-analysis of the deposited data

Results flagged for a closer look

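The changes with Erg and with Olig2 differed in 9 member probesets by limma's test of the difference, all lower with Erg: Dsp by -1.77 (1435493_at) and -2.10 (1435494_s_at), Dsg2 by -0.62 (1426153_a_at), -0.88 (1439476_at) and -0.87 (1449740_s_at), Cxadr by -1.68 (1427321_s_at), -0.70 (1449949_a_at) and -2.65 (1453282_at), and Ocln by -0.84 (1448873_at).

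In 7 member probesets every clone moved up with Runx1 and down with Erg. The share of all probesets that moved in this way was not counted, so the 7 cannot be set against it. The change with Runx1 less that with Erg was 1.07, 3.44 and 4.05 for Dsp (1427610_at, 1435493_at and 1435494_s_at), 3.25, 1.41 and 1.18 for Cxadr (1427321_s_at, 1449949_a_at and 1452391_at) and 0.85 for Ocln (1448873_at). Cldn6 (1417845_at) moved down in every clone with Runx1 and up in every clone with Erg, a difference of -0.70. Dsp with 1427610_at and Cxadr with 1452391_at were not called with Erg, and Cldn6 was not called with Runx1. The experiments were normalized on different arrays, and these differences were not tested. No group held more than 3 samples, so none was checked for single outlying samples.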

How the results depend on the processing

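None of the 32 called member values turned its sign under the alternatives run, and single list genes were not rerun. At the 0.05 threshold, 14 of the 32 were called under every alternative that gave them a value except the methods' t-test, 9 of 12 with Runx1 (among them Dsp 1435493_at and 1435494_s_at, Cxadr 1427321_s_at, 1449949_a_at and 1452391_at, Dsc2 1426911_at, Pkp2 1429183_at and 1449799_s_at and Ocln) and 5 of 13 with Erg (Dsp 1435493_at and 1435494_s_at, Cxadr 1427321_s_at and 1453282_at, and Dsc2 1421156_a_at), and 12 of the 14 also passed 0.01, all but Pkp2 1429183_at and Ocln with Runx1. Those with Olig2, Aire and Sim2 were not: without the replicate block, member calls fell from 5 to 0 with Olig2, 1 to 0 with Aire and 1 to 0 with Sim2, list calls fell from 5 to 0 with Olig2 and 5 to 0 with Aire, and 11 of the 32 values were lost in all. Leaving out a replicate gave 9 to 11 member calls with Runx1, 5 to 12 with Erg, 0 to 2 with Olig2, 0 to 4 with Aire, 0 to 1 with Sim2, 0 to 2 with Gabpa, 0 to 1 with Hunk and 0 to 8 with Pdxk, and 7 to 8 in Erg against Olig2 (9 in full); list calls were 12 to 14 with Runx1 (17 in full), 12 to 17 with Erg (21), 0 to 4 with Olig2 (5), 0 to 7 with Aire (5) and 0 to 2 with Sim2 (0). The methods' t-test after adjustment gave 7 with Runx1, 1 with Erg and 0 with Olig2, Aire and Sim2; at its unadjusted threshold it gave 8 with Olig2, 5 with Aire, 4 with Pdxk, 3 with Gabpa and Pfkl, 2 with Sim2, Hunk and Ripk4, and 1 with RIKEN-1810007M14, Dyrk1a and Zfp295. At an adjusted p under 0.01 the counts were 7 with Runx1, 6 with Erg and 0 with Olig2, Aire and Sim2. Leaving out probesets with an _a_at, _s_at or _x_at suffix left 7 with Runx1 and 7 with Erg, and leaving out dim probesets left 4 with Runx1 and gave 3 with Aire. The regularized test gave 3 with Aire, 2 with Sim2 and 1 with Pdxk, and trended, robust variances 4 with Aire, 8 with Olig2 and 2 with Sim2. A single fit over all Mouse430_2 arrays gave 3 with Aire, Gabpa and Nrip1, 6 with Sim2, 2 with Pdxk and 1 with Ripk4. A second quantile normalization gave 0 with Aire and 1 list call with Sim2, median centring 0 with Sim2, exchanged clones 0 with Sim2, and the mean over probesets 8 list calls with Olig2 and 1 with Sim2. With the 57 pairs as units in place of 19 experiments, 5 member probesets had a mean response (Tjp1, Cldn6, Cdh1 and 2 of Pkp2). The causes were not tested. Dim probesets, such as those of Dsc2, limit what low signals show.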
